A study of Mus musculus with 6 samples.

Results

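CpG-rich promoters of the mouse kidney were read from a list of accessible intervals called by ATAC-seq, in which the transposase Tn5 cuts open chromatin and inserts sequencing adapters. A promoter was taken as CpG-rich when the 1001 bp centred on its transcription start site (TSS) held at least 55% G and C and CpG dinucleotides at no less than 0.6 of the number expected from its C and G content (CpG observed/expected). The start sites were those of the canonical protein-coding transcripts of GENCODE M39 on the autosomes, and an interval belonged to a promoter when it overlapped the 500 bp on either side of the TSS. Of 20444 such start sites, 8323 were CpG-rich, and 7554 distinct intervals of 279569 in the whole list lay at them. The peak lists held 1 pooled call.

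The labels gave 3 WT libraries and 3 libraries with a tubule-specific Acly knockout (Acly cKO). Acly encodes ATP-citrate lyase, which makes acetyl-CoA from citrate, and in the knockout a Ksp-Cre transgene, driven by the cadherin 16 promoter, recombined floxed Acly in renal tubular epithelium, so that cells other than tubule cells kept the gene. Per the study's methods, the controls were littermates with floxed Acly and no Cre. All 6 libraries were labelled Control for treatment, although the series text speaks of kidney injury, and that text counts 2 further WT libraries from an earlier deposit. The WT libraries carried batch labels 1, 1 and 2 and the Acly cKO libraries 4, 4 and 5, and no batch held both genotypes, so the effects of the 2 cannot be told apart. A pooled call separates neither, and the labels do not say which libraries entered it. There were therefore no replicates and no tests, and every interval given here covers counting error only. In bulk tissue, fewer cells of a type and less open chromatin per cell cannot be told apart. Of 32 proximal tubule markers, 31 had an interval at the TSS, the exception being the transporter gene Slc22a8, where 76.4% of all 20444 promoters had one.

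CpG islands are stretches in which CpG dinucleotides have escaped the loss that cytosine methylation causes elsewhere in vertebrate genomes. They hold the start sites of most housekeeping genes and of many developmental regulators, are usually free of methylation, and are kept open by factors that bind GC-rich words, among them SP1, NRF1 and ETS proteins. At silent genes, islands can instead be covered by Polycomb complexes or, for a set of germline genes, be methylated.

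The sequences below show what the classes look like, all from GRCm39 and written 5′ to 3′ on the strand of the gene. The first 3 are the 150 bp before the TSS of Hmgb2, the promoter with the highest fold enrichment with its summit within 500 bp of the TSS, and of Sycp1 and Tex12, meiotic genes whose CpG-rich promoters had no interval. CpG dinucleotides are in capitals, with 8 in Hmgb2, 12 in Sycp1 and 10 in Tex12. Over the whole 1001 bp Hmgb2 had the highest CpG observed/expected of the 3, with 0.82 against 0.71 for Sycp1 and 0.67 for Tex12. The median was 0.80 over the 8235 CpG-rich promoters with an interval and 0.71 over the 88 without one.
Hmgb2 (chr8:57964537-57964686, plus strand): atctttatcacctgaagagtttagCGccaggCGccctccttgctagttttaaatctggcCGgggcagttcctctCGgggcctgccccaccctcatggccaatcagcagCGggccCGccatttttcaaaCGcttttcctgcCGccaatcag
Sycp1 (chr3:102843456-102843605, minus strand): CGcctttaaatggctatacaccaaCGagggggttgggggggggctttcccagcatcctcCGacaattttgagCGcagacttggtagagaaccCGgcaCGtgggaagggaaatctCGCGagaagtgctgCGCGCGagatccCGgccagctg
Tex12 (chr9:50472632-50472781, minus strand): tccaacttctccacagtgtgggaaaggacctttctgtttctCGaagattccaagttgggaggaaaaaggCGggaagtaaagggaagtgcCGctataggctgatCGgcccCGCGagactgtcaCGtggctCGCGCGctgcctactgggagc

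The next 4 show words of promoter factors, in capitals, each from a promoter of high fold that holds the word within 50 bp of its summit. Cggbp1 carries the CCAAT box, Ppp2r1a the ETS word and 4930579G24Rik the ZNF143 word. From Ccdc115 only 30 bases around the YY1 word are given.
Cggbp1 (chr16:64672151-64672280, plus strand): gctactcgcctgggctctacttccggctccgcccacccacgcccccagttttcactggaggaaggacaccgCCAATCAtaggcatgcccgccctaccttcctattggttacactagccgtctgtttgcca
Ppp2r1a (chr17:21165412-21165572, plus strand): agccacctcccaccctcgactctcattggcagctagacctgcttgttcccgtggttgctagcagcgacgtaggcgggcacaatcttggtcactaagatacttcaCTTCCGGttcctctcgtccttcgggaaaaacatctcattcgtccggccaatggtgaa
4930579G24Rik (chr3:79536200-79536297, plus strand): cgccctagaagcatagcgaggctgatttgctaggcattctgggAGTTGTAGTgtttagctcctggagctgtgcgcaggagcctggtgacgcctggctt
Ccdc115 (chr1:34478852-34478881, minus strand): gccccatcttAAGATGGCGaatggaggagg

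Nearly every CpG-rich promoter was accessible. An interval overlapped 8235 of the 8323 promoters, or 98.9% (Wilson 95% interval 98.7 to 99.1), where 76.4% of all 20444 promoters had one. Among the 8101 promoters below both thresholds, called CpG-poor here, the share was 44.3% (43.2 to 45.4). The 4020 promoters past 1 threshold lay between, and the CpG threshold told more than the GC threshold, with 97.6% (96.8 to 98.3) of 1732 promoters that passed CpG observed/expected alone and 91.6% (90.4 to 92.6) of 2288 that passed GC alone. On the X chromosome, outside the autosomal set, 172 of 180 CpG-rich promoters had an interval (95.6%, 91.5 to 97.7).

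CpG-rich promoters also had higher fold than the rest. Fold enrichment, the ratio of pileup at the highest summit to the local background as MACS3 gives it, had a median of 39.7 over accessible CpG-rich promoters (95% interval of the median 39 to 40.3, quartiles 24.7 and 57.0). It was 27.5 (26.3 to 28.3) at promoters past 1 threshold and 10.4 (9.62 to 10.9) at CpG-poor ones. A fold of at least 10 was reached by 92.0% of accessible CpG-rich promoters and by 51.0% of accessible CpG-poor ones. The low end of the CpG-poor distribution, near a fold of 2, was almost empty among CpG-rich promoters. Counted by interval, the 7554 members had a median fold of 38.4 (37.7 to 39.2), and 90.5% of them reached a fold of 10, where 12.3% of all intervals did.

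**Figure D1:**
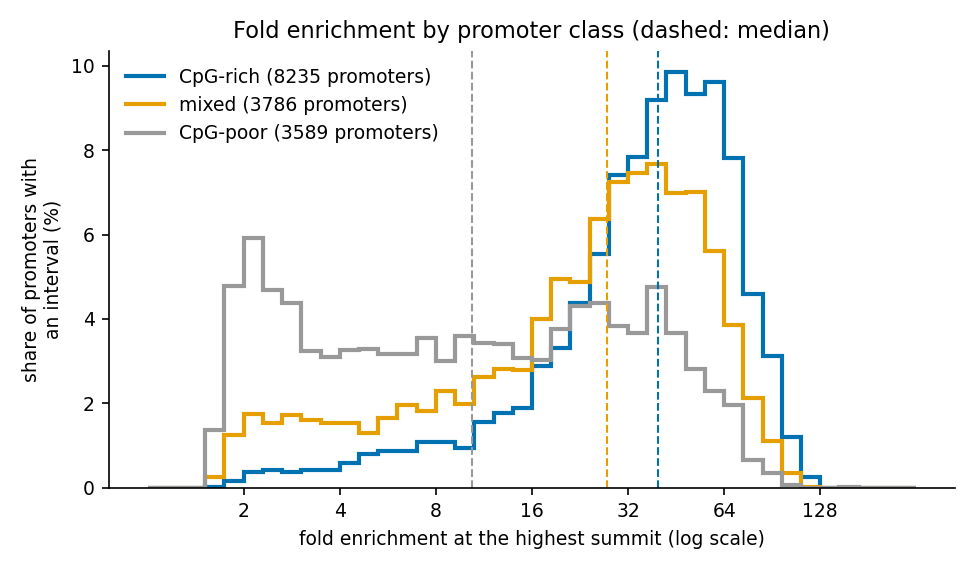
Distribution of fold enrichment at the highest summit (x axis, log scale) for promoters with an interval, as a share of each class (y axis, %), with 8235 CpG-rich, 3786 mixed (1 threshold passed) and 3589 CpG-poor promoters. Dashed lines mark the medians of 39.7, 27.5 and 10.4, and the CpG-poor curve has a peak of its own near a fold of 2.

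The intervals at CpG-rich promoters were wide and held many summits. Their median width was 3512 bp and their median number of summits was 8, where the median of all intervals was 434 bp and 1 summit. Other promoter intervals lay between, with 2616 bp and 6 summits at promoters past 1 threshold and 1530 bp and 3 summits at CpG-poor ones. A single summit was found in 3.55% of the members and in 53.4% of all intervals. In the other 2 promoter sets the share was 9.93% and 25.1%. The members made up 2.70% of the intervals but 13.1% of the total width and 10.6% of all summits. Of the 1000 intervals with the highest fold in the whole list, 776 were members (77.6%, 74.9 to 80.1), and the 10000 highest held 66.8% of all members. One member could serve several promoters, since 701 covered 2 or more CpG-rich start sites, with a median fold of 50, against 37.3 for the 6853 that covered 1.

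Accessibility rose with CpG density, and within the CpG-rich class fold had little relation to GC content alone. Over all 20444 start sites, the share with an interval was 14.6% at a CpG observed/expected under 0.1, 54.9% between 0.2 and 0.3, 94.4% between 0.5 and 0.6 and 99.4% between 0.9 and 1.0. The median fold of the accessible promoters in the same bins was 3.83, 7.33, 26.3 and 43.7. Within the CpG-rich class the median fold was 33.7 (31.9 to 35.2) between 0.6 and 0.7 and 43.9 (42.4 to 45.4) between 0.9 and 1.0. By GC content it was 39.3, 40.8, 39, 37.9 and 39.6 in steps of 5 percentage points from 55% upward, with intervals that overlapped for the lowest and highest steps. At a fixed CpG density it was lower at high GC. Between a CpG observed/expected of 0.6 and 0.7 it was 35.6 (34.0 to 37.5) at 55% to 60% GC and 29 (23.8 to 33.3) from 65% upward, and between 0.7 and 0.8 it was 38.9 (37.1 to 41.2) and 33.7 (31.6 to 36.9). From 0.9 upward these were 42.9 (39.3 to 46.4) and 42.5 (40.7 to 44.7). As a description over the 8235 accessible promoters, Spearman's rho with fold was 0.16 for CpG observed/expected and -0.01 for GC. The points share libraries and neighbouring sequence, and GC content also changes how well fragments are amplified and sequenced, the part of which was not tested.

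**Figure D2:**
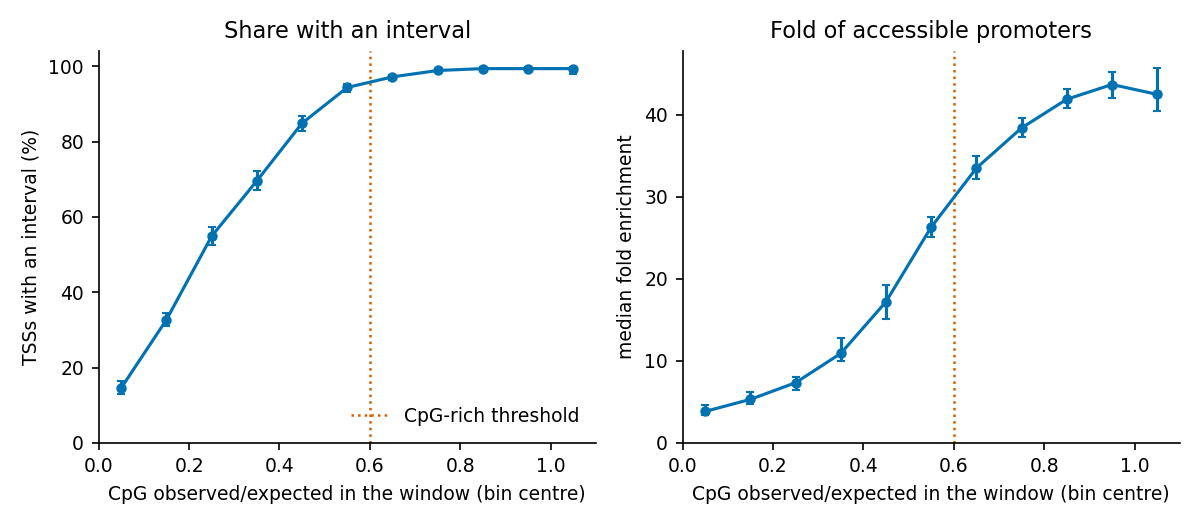
Share of start sites with an interval (left, %, Wilson 95% intervals) and median fold enrichment of those with one (right, 95% intervals of the median) against CpG observed/expected in the 1001 bp window, for all autosomal canonical coding start sites. The dotted line marks the threshold of 0.6, and the share rises from 14.6% to 99.4% with no step at that line.

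Promoters next to the thresholds had values on both sides of the class median. Just inside the GC threshold, Abraxas1, Alg1 and Anapc1 had folds of 27, 35.6 and 22.7, and just outside it Akt1s1 and Atad5 had 72.7 and 7.27. Just inside the CpG threshold, Cmtm3, Surf6 and S1pr1 had folds of 24.5, 40.7 and 13.6, and just outside it Zfp385a and Armh1 had 32.3 and 50.9. The ranges on either side of each threshold overlapped.

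Fold varied with where in the genome a CpG-rich promoter stood. Over quintiles of the GC content of the surrounding 100 kb, a measure added after the values were seen, the median fold was 50.5 (49.4 to 52.0) in the most AT-rich quintile, from 35.3% to 42.2% GC, and 33.7 (32.7 to 35.4) in the most GC-rich, from 49.2% to 56.3%. The quintiles between had 43.5, 37.7 and 34.1. CpG density in the window fell along with it, with a median CpG observed/expected of 0.83, 0.82, 0.80, 0.78 and 0.76 from the first quintile to the last, and its part in the difference was not tested. Spearman's rho of fold with flanking GC was -0.24 over the 8235 CpG-rich promoters and 0.05 over 3589 CpG-poor ones. Intervals were wider in the last quintile, with a median of 4866 bp, than in the first, with 3323 bp. The local background of the caller, gene density and amplification differ along the same axis, and their part was not tested.

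By chromosome, the median fold of CpG-rich promoters ran from 30.6 on chromosomes 11 and 19 to 46.9 on chromosome 1. Chromosomes 15 and 17 both had a median flanking GC of 47.8%, with median folds of 34.4 and 44.1. Within the middle quintile of flanking GC, chromosomes 11, 19 and 9 had the lowest medians. These were 31.1 over 151 promoters, 30.8 over 58 and 31.3 over 106. CpG-poor promoters of chromosomes 11 and 19 had medians of 9.17 (7.01 to 12) and 12.1 (10.0 to 16.2), where all CpG-poor promoters had 10.4. The part of flanking GC in the differences between chromosomes was not tested. On the X chromosome the median fold of CpG-rich promoters was 31.2 (28 to 35.5).

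The highest summit stood close to the TSS. Its median distance was 76 bp (73 to 78) in either direction, with 38.5% of summits within 50 bp, 67.5% within 150 bp and 89.2% within 500 bp. At CpG-poor promoters the median was 150 bp (137 to 166) and 73.3% lay within 500 bp. Upstream and downstream were almost even, with 47.7% upstream and a median position of 4 bp downstream. The most frequent place was the 20 bp before the TSS, which held 752 highest summits.

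**Figure D3:**
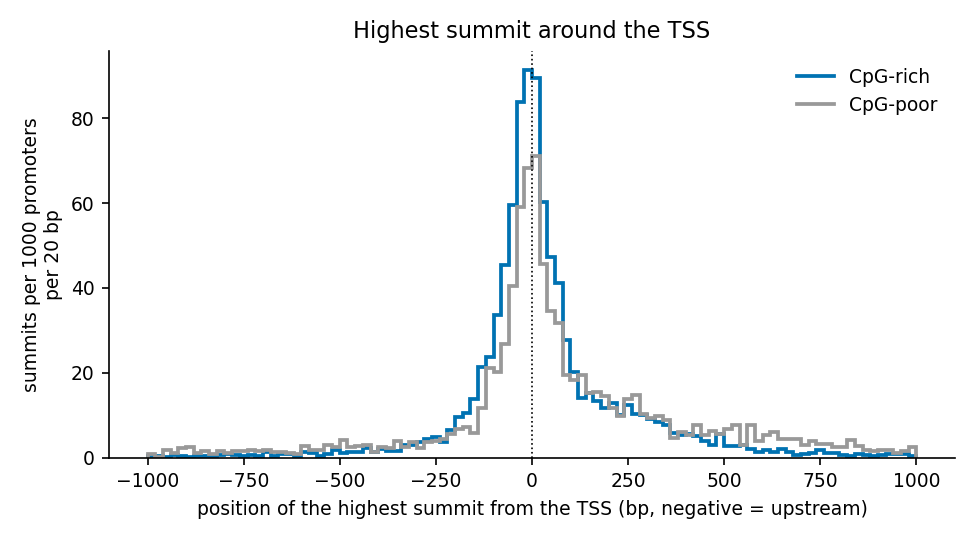
Number of highest summits per 1000 accessible promoters in bins of 20 bp (y axis) against distance from the TSS in bp (x axis, negative upstream), for 8235 CpG-rich and 3589 CpG-poor promoters. Both peak at the TSS, the CpG-rich profile higher, and both have a longer shoulder downstream than upstream.

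Promoters with high fold had their summit upstream more often. The upstream share was 33.9% in the lowest quintile by fold, 45.7% in the middle quintile and 61.9% in the highest, and the median position moved from 55 bp downstream to 30 bp upstream. Summits upstream of the TSS had a median fold of 45.1, those in exon 1 35.8 and those in intron 1 29.9, with 47.7%, 45.5% and 5.26% of the promoters. Divergent promoters had both a high fold and an upstream summit. At 729 CpG-rich start sites (8.76%) another coding TSS pointed the other way within 1 kb upstream, and their median fold was 51.4 (48.8 to 53.4) against 38.7 (37.9 to 39.4) for the others. Their median summit position was 48 bp upstream, and 75.5% of their summits were upstream against 45.0% of the rest.

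A set of 12 words bound by known promoter factors were counted in the 250 bp before and 50 bp after each TSS, on both strands. The GC box GGGCGG, bound by SP and KLF proteins, was in 72.2% (71.2 to 73.2) of accessible CpG-rich promoters, 11.8% of CpG-poor and 43.3% of all. The ETS word CCGGAAG, bound by factors such as GABPA, was in 16.6% (15.8 to 17.4) against 3.37% of CpG-poor and 10.4% of all. The NRF1 word GCGCANGCG, named for a regulator of nuclear genes for mitochondria, was in 15% (14.3 to 15.8) against 1.07% and 7.94%. These 3 words contain CpG, so a CpG-rich window holds them more often by composition alone. The NF-Y word CCAATCA (the CCAAT box) has no CpG and was in 10.5% (9.84 to 11.2) of accessible CpG-rich promoters, 7.10% of CpG-poor and 8.78% of all.

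Rarer words followed the same division. AAGATGGCG (YY1) was in 2.3%, TGACGTCA (the cyclic AMP response element, CRE) in 3.69%, CAGGGGGCG (part of the site of CTCF, which organises chromatin loops) in 4.10% and CACGTG (E-box) in 11.4% of accessible CpG-rich promoters, against 1.34%, 2.43%, 2.26% and 7.88% of all promoters. ACTACAANT (ZNF143) was in 2.33%, close to its 2.14% of all. The words of tubule factors were scarce, with GTTAATNAT (HNF1) in 0.158% and CAAAGTCCA (HNF4) in 0.170%, where CpG-poor promoters had 1.63% and 0.667% and all promoters 0.812% and 0.465%. TATAAA on the sense strand from 40 to 20 bp before the TSS was in 0.777%, against 4.79% of CpG-poor and 2.46% of all promoters. The YY1, CRE, CTCF and E-box words contain CpG, and the HNF1, HNF4 and TATA words do not. Base composition therefore also changes how often a CpG-rich window holds each of them, and its part was not tested. A match is a word in the sequence and was not a measurement of binding.

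The words had places of their own. CCAAT boxes centred on a median of 60.5 bp before the TSS and ZNF143 words on 74.5 bp before it. The medians of ETS and NRF1 words were 23.5 bp and 26.5 bp before it. The window reached 250 bp before the TSS but 50 bp after it, which draws every median upstream. Most frequent for both words was the bin from 0 to 10 bp after the TSS, with 172 ETS and 168 NRF1 words. YY1 words stood downstream, at a median of 15 bp after the TSS, with the most instances between 30 and 40 bp after it (43 of 196), and 64.3% read in the direction of the gene. Of the 14307 GC boxes, 52.2% read in that direction.

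Fold was higher where some of these words were present, among them the GC box, which holds CpG, and the CCAAT box and ZNF143 word, which hold none. With a GC box the median fold was 41.7 (40.9 to 42.4), and without it 35.0 (33.6 to 36.1). The share with a GC box rose from 65.3% in the lowest quintile by fold to 79.7% in the highest. The median fold was 53.9 (51.5 to 56.6) at the 863 accessible CpG-rich promoters with a CCAAT box and 38.2 (37.4 to 38.9) at those without. Their share was 5.16% in the lowest quintile by fold and 19.4% in the highest. The order held within CpG density, with a ratio of the medians with and without the word from 1.34 to 1.48 over 4 ranges of CpG observed/expected. ZNF143 words came with a median fold of 55.9 (50.2 to 58.7) against 39.4, and their share was 0.729% in the lowest and 4.49% in the highest quintile.

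ETS and NRF1 words showed another pattern, a step between the lowest quintile and the rest. ETS words were in 7.29% of the lowest quintile and in 18.0%, 18.0%, 19.1% and 20.5% of the others, and NRF1 words in 6.98% and then 17.7%, 16.9%, 18.2% and 15.4%. The median fold with an ETS word was 44.3 (43.1 to 46.1) against 38.6 (37.8 to 39.3) without, and with an NRF1 word 42.3 (40.7 to 44.3) against 39.2 (38.3 to 39.9). Over the same 4 ranges of CpG observed/expected, the ratio of medians stayed between 1.10 and 1.32 for the ETS word. For the NRF1 word it went from 1.25 at the lowest density through 1.09 and 1.04 to 0.964 at the highest, where the median was 42.0 with the word and 43.5 without. E-boxes had no such order, with 10.9% in the lowest and 9.84% in the highest quintile. Promoters with none of 5 words (CCAAT, ETS, NRF1, YY1 and CRE) had a median fold of 36.3 (35.4 to 36.9) over 4936. Those with 1 had 43.8 (42.6 to 44.8) over 2679 and those with 2 had 49 (46.7 to 51.5) over 580. Those with 3 or more were 40 promoters, with a median of 47.3 (44.2 to 58.6), not above that for 2. Within the ranges of CpG observed/expected, the ratio of medians lay between 0.980 and 1.14 for YY1 and between 0.920 and 1.27 for CRE.

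**Figure D4:**
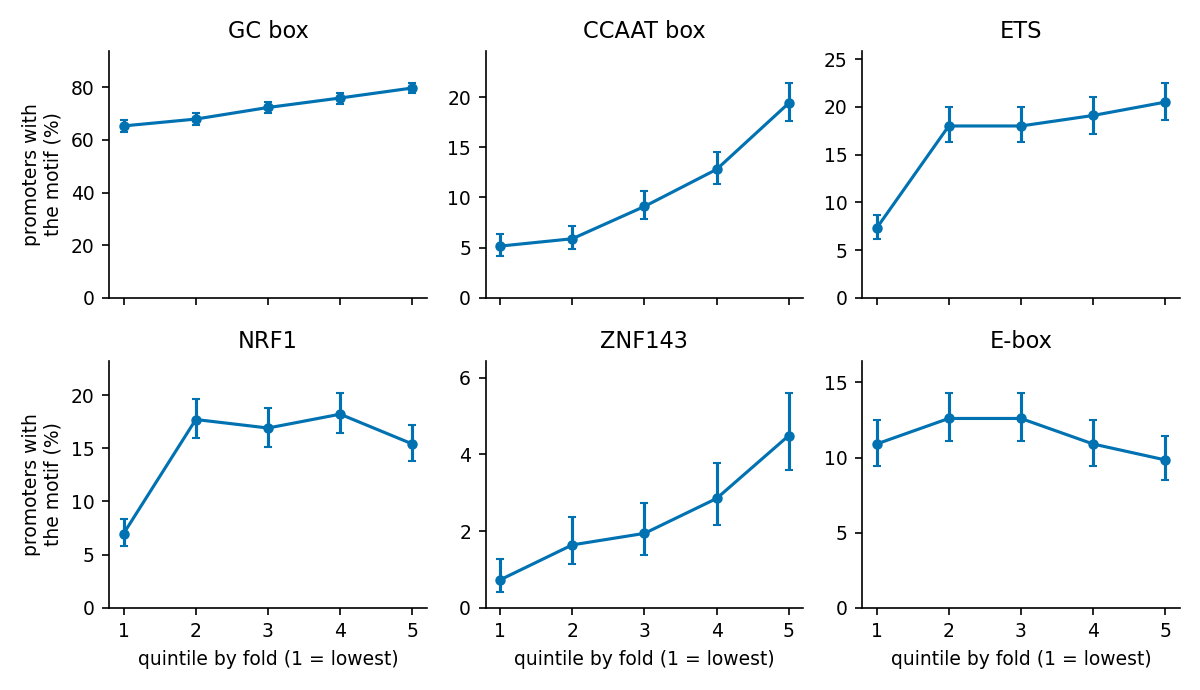
Share of accessible CpG-rich promoters that hold each of 6 words (y axes, %, from 0, scales differ; Wilson 95% intervals) by quintile of fold enrichment (x axis, 1647 promoters each). GC box, CCAAT and ZNF143 shares rise from quintile to quintile, ETS and NRF1 shares step up after the first, and the E-box share is nearly flat.

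The 10 highest folds lay between 116 and 122. Hmgb2, a DNA-bending chromatin protein, had the highest fold at 122 over the interval chr8:57963057-57967044 (GRCm39), followed by Cggbp1, a protein that binds CGG repeats, at 121, and the unnamed coding gene ENSMUSG00000144225 and the ubiquitin ligase gene Pja2 at 119 each. Hmgcs1, of cholesterol synthesis, had 118. Khsrp (RNA decay), Qdpr (recycling of tetrahydrobiopterin), Pex2 (peroxisome assembly) and Stt3a (protein N-glycosylation) each had 117, and Ppp2r1a, a subunit of protein phosphatase 2A, had 116. The interval of Cggbp1 also covered the TSS of Zfp654, and that of ENSMUSG00000144225 the TSS of Ifrd1. In 8 of the 10 the summit was upstream of the TSS, by 30 to 261 bp.

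The widest members were stretches of open chromatin far longer than a promoter. The interval at Zmiz1, a coactivator gene, spanned 57286 bp (chr14:25450730-25508015) with 167 summits, and its highest summit lay 30631 bp into the gene with a fold of 46.4. Cbarp (48078 bp), Cactin (44466 bp), Mpv17l2 (40754 bp) and Ndrg1 (39441 bp) followed. The first 3 of these 4 covered other coding start sites as well, while that of Ndrg1, a gene induced by stress and hypoxia, covered none and had its highest summit 171 bp downstream of the TSS with a fold of 66.5.

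The weakest intervals had folds under 2. The lowest -log10 q values of the accessible promoters were those of Rbmxl2, a testis paralogue of an RNA-binding protein, and Spo11, which makes the DNA breaks of meiosis, with 1.37 each and a fold of 1.70. Ajap1, Nrg2 and Ptf1a, the last a pancreas and neural transcription factor, had 1.64 and a fold of 1.77. Each of these 5 intervals had a single summit and a width between 197 and 361 bp.

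Fold is given next by gene list, with the number of CpG-rich promoters in each, where 8323 of all 20444 start sites were CpG-rich. The lists were chosen with earlier results of these data known, so their values describe and support nothing further. Cytosolic ribosomal proteins had a CpG-rich promoter in 58 of 75 genes, all 58 with an interval, and a median fold of 43.5 (36.3 to 51.0), from Rpl19 at 16.7 to Rpl15 at 105. The respiratory chain and ATP synthase had 40 CpG-rich promoters of 74 and a median of 46.5 (41.6 to 58.9), from Ndufb8 at 17.5 to Atp5pf at 92.3. Proteasome genes (18 of 31, median 38.4), RNA polymerase II and splicing genes (24 of 40, median 40.9) and aminoacyl-tRNA synthetases (10 of 20, median 39) lay around the 39.7 of all CpG-rich promoters. None of the 150 CpG-rich promoters on these 5 lists was below the lowest decile of the class, which ended at a fold of 12.2.

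The CpG-rich promoters of the pathways that the study followed all had an interval, where 98.9% of the class did. Acly had a fold of 50.2 over chr11:100414067-100420132 where the highest summit stood 9 bp past the TSS in exon 1, and the list of acetyl-CoA and histone acetylation genes had a median of 45.3 (34.8 to 57.5) over 24 promoters of 37 genes, from the deacetylase gene Sirt7 at 16.1 to the acetyltransferase gene Kat6b at 95.1. Pdhb, of the pyruvate dehydrogenase complex, had 90. The rest of the 37 were not CpG-rich, among them the acetyl-CoA carboxylase genes Acacb, with a fold of 11.0, and Acaca, with no interval. JAK-STAT genes, which carry cytokine signals to the nucleus, had a median of 46.9 (32.8 to 63.1) over 22 promoters of 32, with Jak1 at 57.6, Jak2 at 49.5, Stat3 at 68.6, and Stat5b lowest at 17.5 and Socs5, an inhibitor, highest at 85.8.

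Matrix and fibrosis genes had 14 CpG-rich promoters of 30, with a median of 37.9 (12.9 to 53.2). In a grouping made after the values were seen, the receptor and signal genes Tgfbr1 (79.5), Smad2 (64.4), Tgfb1 (53.2), Smad3 (53.0), Smad4 (50.6) and Smad7 (48.1) were above 39.7, whereas the genes of matrix proteins and enzymes Col4a1 and Col4a2 (31.6 each, from 1 shared interval), Fn1 (19.6), Col27a1 (16.5), Has3 (12.9), Col5a1 (12.6) and Lox (8.45) were below it. Fn1 encodes fibronectin, with its summit 5 bp upstream of the TSS, and Has3 a hyaluronan synthase, with its summit 1249 bp downstream in intron 1. Ccn1, a secreted matrix-associated protein, had 44.3. The highest summit of the Tgfb1 interval was far from the start site, at -6136 bp. The promoters of Tgfb2 (12.3), Tgfb3 (24.6) and Tgfbr2 (30.2) were not CpG-rich, and their folds were below 39.7.

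Few genes that mark tubule cells had CpG-rich promoters, where 8323 of all 20444 start sites were CpG-rich. The proximal tubule list held 2 of 32, the endocytic receptor gene Lrp2 (33.1) and the bicarbonate transporter gene Slc4a4 (27.7). Of its other 30 genes, 29 had an interval, where 76.4% of all promoters did, and their median fold was 16.2. The thick ascending limb and distal tubule list held 2 of 18, Wnk1 (56.0) and Cldn10 (14.9), and the collecting duct list 2 of 17, Hsd11b2 (23.0) and Kit (13.7). The endothelial, immune and stroma lists held 3 of 16, 1 of 21 and 3 of 15 genes with a CpG-rich promoter. Endothelial Fli1 (11.7), Flt1 (9.76) and Kdr (8.64) were all under 12.2, as were Ikzf1 of the immune list (9.76) and Foxd1 (7.92) and Des (3.86) of the stroma list, where Cxcl12 had 20. Podocyte genes (9 of 14) had a median of 18.5 (7.46 to 48.4), from Ptpro at 2.55 to Cd2ap, which is not restricted to podocytes, at 51.7. Of these 9 promoters, 3 were at or above 39.7 and 2 were under 12.2.

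Developmental regulators had CpG-rich promoters about as often as housekeeping genes, but with lower fold. Of all 20444 start sites, 8323 were CpG-rich. Regulators of other lineages had 25 of 44, and the 24 with an interval had a median fold of 7.01 (3.54 to 13.5), none at or above 39.7 and 17 under 12.2. Gsx2 (2.10), Tlx1 (2.10), Six6 (2.23), Pou4f2 (2.23) and Cdx2 (2.42) were the lowest and Lhx2 and Neurog2 (19.8 each) the highest, and Pax7, of muscle stem cells, had no interval. Regulators of nephron patterning had 20 of 30 with a median of 21.3 (12.6 to 39.4). Among them Tfcp2l1 (50.3), Pou3f3 (47.0), Sall1 (45.8), Osr2 (42.2) and Pax2 (39.5) were well above Gdnf (6.15), Hoxc11 (6.42), Six2 (6.55) and Hoxa11 (8.12).

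The highest summit of the interval at Pax2, which encodes a kidney transcription factor, lay 5106 bp upstream of the TSS, and it carried the HNF1 word. The 201 bp around it on GRCm39 are shown because HNF1 factors are regulators of tubule genes, with the word in capitals.
Pax2 (chr19:44739278-44739478, plus strand): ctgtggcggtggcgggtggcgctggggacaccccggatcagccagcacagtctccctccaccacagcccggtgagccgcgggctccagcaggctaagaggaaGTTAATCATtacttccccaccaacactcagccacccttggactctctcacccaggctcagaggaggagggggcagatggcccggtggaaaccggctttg

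**Figure D5:**
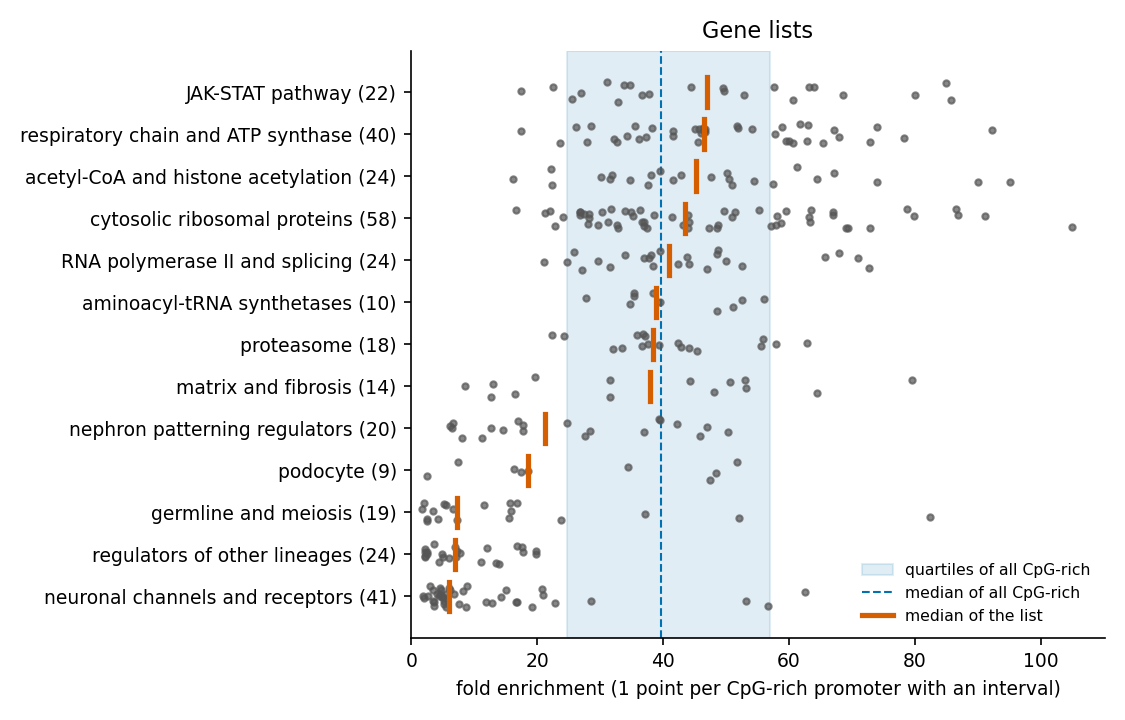
Fold enrichment (x axis) of each CpG-rich promoter with an interval, 1 point each, by gene list (number of promoters in brackets; lists with at least 9), with the median of each list as a bar and the median and quartiles of all CpG-rich promoters as the dashed line and band. Housekeeping and signalling lists centre in the band, and regulators of other lineages, germline genes and neuronal genes lie below it; the last 2 lists were added after the values were seen.

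The 88 CpG-rich promoters without an interval fell into 3 sets. For 34 of them, at least 50% of the 50-base words in the window occurred more than once in GRCm39, and the authors kept only uniquely mapped reads. That was true of 26 of the 8235 accessible promoters (0.316%). They include the histone genes H2ac23, H2ac24, H2bc23 and H2bc24, the MHC class I genes H2-Q6 and H2-Q7, and runs of near-identical genes such as Gm13272 to Gm13289. Among the 60 promoters with such windows, 43.3% (31.6 to 55.9) had an interval, against 99.3% (99.1 to 99.5) of the other 8263. The part of read mapping in the missing intervals was not tested.

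The second set is the divergent pair Mrps18b, of the mitochondrial ribosome, and Ppp1r10, a regulator of protein phosphatase 1, on chromosome 17. The filtered list had no interval within 9051 bp of either TSS, but the list of summits before filtering held 1 near both with a -log10 q of 1613, above the 697 that was the median of the members. It was among the 874 summits that are not in the filtered list. With it, 8237 of 8323 CpG-rich promoters had a summit.

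The other 52 promoters had mostly unique sequence, 46 of them with no repeated word, and lay at a median of 4890 bp from the nearest interval. A list of 63 germline and meiosis genes, written after the values were seen, held 16 of the 52. They include Ddx4, Mael, Mov10l1 and Stk31, of the germ granules and piRNA pathway, Sycp1 and Tex12, of the synaptonemal complex, and Dmrt1, a testis transcription factor. The remaining 36 include neuronal genes (Cacna1i, Kcnj6, Slc6a2, Slc18a3) and developmental genes (T, Wnt3, Wnt3a, Foxb1, Lhx5, Fev).

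The germline genes were low as a group even where an interval was present. Of 35 with a CpG-rich promoter, 19 had an interval, with a median fold of 7.27 (3.47 to 16.8) and 11 under 12.2, among them Sycp2 (2.03), Dmc1 (2.42), Tdrd1 (3.47) and Sycp3 (5.17). Prdm9 (82.4) and Msh5 (52.1) were the 2 above 39.7, and the interval of Msh5 also covered the TSS of Clic1. The E-box CACGTG was in 14 of these 35 promoters (40%), including Sycp1 and Tex12 as printed above. It was in 11.4% of accessible CpG-rich promoters and 18.2% (11.5 to 27.5) of those without an interval. The 88 without an interval include 16 of these 35 germline promoters, and the accessible ones the other 19, so neither is a separate set. Neuronal channels and receptors, also listed after the values were seen, differed in that 41 of 43 had an interval, but a weak one, with a median fold of 6.02 (4.84 to 11.9) and 28 under 12.2. Their E-box share was 11.6%. Both lists were chosen from these values, so their counts describe and support nothing further.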

How the data were processed

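ATAC-seq was done on kidney tissue from 3 WT and 3 Acly cKO mice, grouped from their labels. The authors used fastp to trim 50 bp paired-end reads and Bowtie2 2.3.4.3 to align them to mm39, dropped duplicates, kept uniquely mapped reads, called peaks with MACS3 3.0.0 at q 0.05 with the extension and shift settings of their methods, and filtered out the blacklist and non-standard chromosomes with bedtools 2.29.1. The sign of the shift is not clear from the sources used here. The deposited peak list gives, for each summit, the fold enrichment, a ratio computed by the authors' caller, the -log10 q and the distance from the interval start. The deposited summit list before filtering gives the -log10 q as well. How deep each library was is unknown, no column belongs to 1 library, and no test was possible.

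Rows with the same start and end were taken as 1 interval with the values of its highest summit by -log10 q, and a promoter with several intervals took the one with the highest. Sequence was read from GRCm39, the build of the files, and coordinates count from 1. Shares have Wilson intervals and medians order-statistic intervals, both at 95% and for counting error only. Words of 50 bases were counted over the whole assembly on both strands. The genes named are the 10 highest by fold with a summit within 500 bp, the 5 widest, the 5 lowest by q, the highest, lowest and missing gene of each list, the highest promoter for each word, those next to the thresholds, 5 genes of the study and the promoters without an interval. Some of these are not reported here. Others in the text were chosen after their values were seen. The members, lists and words were chosen with earlier results of these data known. Alternatives were the q threshold, the overlap distance, the place of the summit, the class thresholds and the window searched for words. Scripts were tested on simulated data, and used Python 3.11.15, numpy 2.4.6, pandas 2.3.3, scipy 1.17.1, pyfaidx 0.9.0.4, numba 0.67.0 and matplotlib 3.10.9.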

Additional observations from a re-analysis of the deposited data

How the results depend on the processing

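The share of CpG-rich promoters with an interval was 98.3% with intervals of q under 1e-05, 88.4% when the highest summit had to lie within 500 bp of the TSS, and 99.5% with at least 60% GC and a CpG observed/expected of at least 0.75. That stricter class gave 3653 intervals over 3947 promoters, since it holds fewer promoters. The median fold of the members was 36.9 with overlap within 1000 bp, 39.6 with the summit within 500 bp and 41.2 in the stricter class. The median summit distance was 63 bp when summits beyond 500 bp were left out, which removes the largest distances by construction. Under the other alternatives the number of intervals, a count with no error of its own, ran from 6815 with the summit within 500 bp to 8754 with at least 50% GC, against 7554. The remaining shares and medians stayed within the error of the reported ones.

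With the 100 bp on either side of the TSS searched, the shares were 70.8% for the GC box, 8.29% for the CCAAT box, 14.9% for ETS, 14.2% for NRF1, 2.82% for YY1, 8.63% for the E-box, 1.66% for ZNF143, 0.0850% for HNF1, 0.0971% for HNF4 and 3.36% for CTCF. In the stricter class they were 80.6% for the GC box, 9.47% for the CCAAT box, 15% for ETS, 17.3% for NRF1, 1.40% for ZNF143, 0.0509% for HNF4 and 4.86% for CTCF. The remaining 19 of 36 shares stayed within the counting interval of the reported ones.

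No paired analysis was possible because the call used here is pooled and gives no value per library, and for the same reason no value without 1 library was computed. The pooled call also sets the limit of the report: which genotype, batch or cell type gave the reads of an interval cannot be told apart, and a fold depends on the caller's local background.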
